A study of Homo sapiens with 28 samples.

Results

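The box C/D small nucleolar RNAs (snoRNAs) were examined in HEK293 cells, a human embryonic kidney line, after knockdown of 9 genes of RNA processing, chromatin and DNA repair. They were taken as every gene whose symbol begins with SNORD among the genes with at least 1 probeset that carries a single symbol. The brightest such probeset, by mean over all arrays, stood for its gene. This gave 115 members among 18417 genes, and all 115 matched a RefSeq entry by gene identifier. A further 64 SNORD symbols lay only on 49 probesets that list several symbols, among them the copies of SNORD3, the rRNA-processing RNA known as U3, and these were not assessed.

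Box C/D snoRNAs are short nucleolar RNAs named for the C and D sequence boxes that bind a core of proteins that includes fibrillarin (FBL), a methyltransferase. Most of them base-pair with ribosomal RNA and guide methylation of a ribose there, a few guide the same mark on spliceosomal RNA, and SNORD14 and SNORD13 also act in rRNA maturation. In human cells nearly all are cut out of the introns of host genes, many of which encode ribosomal proteins or non-coding RNAs whose spliced product has little known role of its own.

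Whole-transcript expression was measured on 28 Affymetrix Human Gene ST arrays, in 2 series of 14 that were normalised apart. Every culture was infected with a lentivirus that expressed a short hairpin RNA and was selected with puromycin, the control cultures included, whose hairpin targets the bacterial lacZ gene. In the first series CLP1 (a factor of pre-mRNA 3′ end cleavage), DDX5 and DDX17 (paralogous DEAD-box RNA helicases) and HNRNPL (a splicing regulator) were each knocked down with 3 different hairpins, CPSF6 (a subunit of cleavage factor I) with 1, and 1 lacZ array was run. In the second series PABPC1 (the cytoplasmic poly(A)-binding protein), PARP1 (a poly(ADP-ribose) polymerase), PRKDC (a DNA repair kinase) and SUPT16H (a subunit of the FACT histone chaperone) were each knocked down with 3 hairpins beside 2 lacZ arrays. The 3 arrays of a knockdown therefore hold 3 different hairpins in a single cell line. The p-values rest on the spread between hairpins pooled over all replicated knockdowns, together with that between the 2 lacZ arrays of the second series. A single lacZ array, as in the first series, gives no measure of its own spread.

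Levels are log2 of the deposited intensity, and differences are knockdown minus reference on that scale with the standard error (SE) of the linear model in limma. A gene was called at a Benjamini-Hochberg adjusted p under 0.05 over all 18417 genes. The targeted transcript was lower than lacZ in 3 of 3 hairpins for each of the 8 replicated knockdowns, with differences from -0.57 for CLP1 to -2.26 for PRKDC. In the first series only the fall of DDX17 was called (limma adjusted p = 0.00254). CLP1, DDX5 and HNRNPL were not called as targets (limma adjusted p = 0.187, 0.0869 and 0.129). Every target of the second series was called. Of 7 transcripts typical of HEK293 cells, 5 lay above the median of all genes, against 1 of 10 transcripts of blood, fibroblasts and keratinocytes. The lacZ array of the first series and 1 of the 2 of the second held the same measurement: their values differed by -0.32 on average with an SD of 0.07 over 33252 probesets, and no probeset departed by more than 1. They were counted as 1 sample, so each comparison with lacZ in the first series rests on 1 control array that also serves the second series. The knockdowns of a series share their lacZ arrays, and their values are given side by side.

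The members fell into 2 sets by position. The 69 members outside the imprinted clusters had mean levels between 3.82 and 13.28, the latter that of SNORD13, with a median of 8.77. Their median SD between hairpins was 0.42 for the 21 members in introns of ribosomal protein genes, 0.36 for the 19 in non-coding hosts, 0.45 both for the 9 in hosts that encode translation or nucleolar proteins and for the 13 in other protein-coding hosts, and 0.22 for the 6 copies outside a known host. SNORD13, which is transcribed from a promoter of its own, had an SD of 0.15, at a level near the top of the scale, where compression of the signal was not tested. The 46 members of the imprinted clusters (SNORD113 and SNORD114 of the DLK1-MEG3 region, and SNORD115 and SNORD116 of the Prader-Willi region) had mean levels between 2.60, that of SNORD115-4, and 4.84, and 43 of them lay below the 10th percentile of all genes. These probesets sat near the floor of the scale. A probe does not tell a mature snoRNA from the unspliced host transcript or the excised intron that holds it, so the forms cannot be told apart, and levels of different probesets are not compared as abundances.

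**Figure D1:**
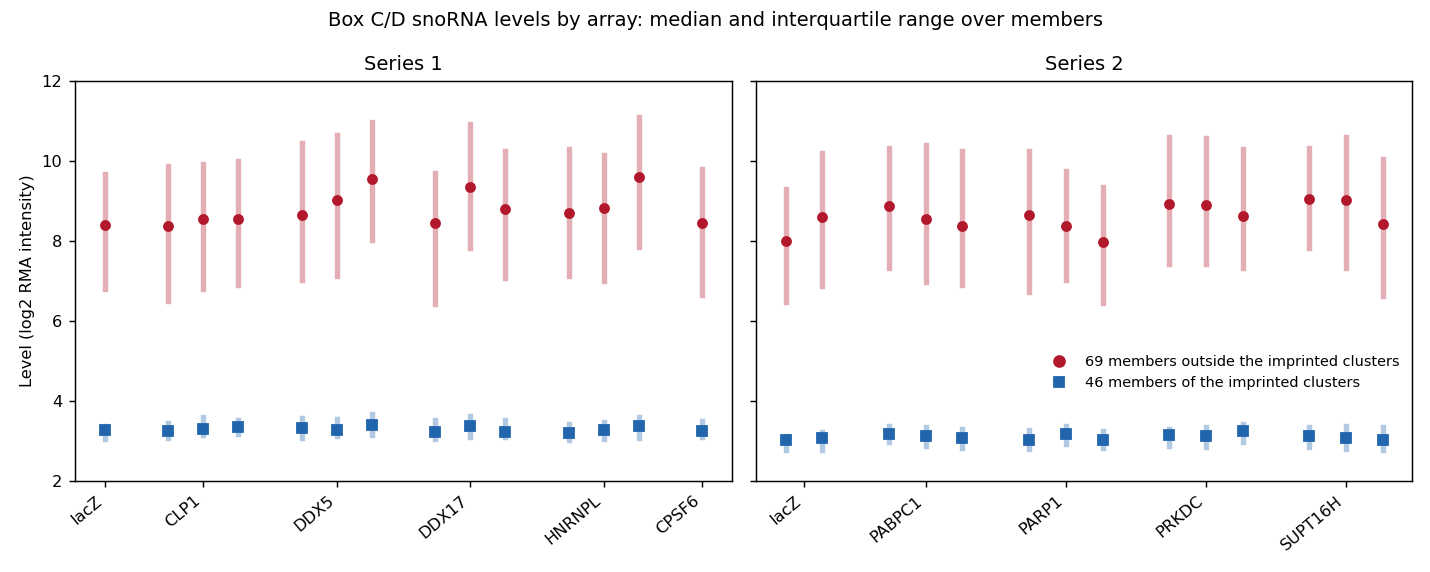
Median level (circles and squares, log2 intensity) and interquartile range (bars) over the members in every array, grouped on the horizontal axis by knocked-down gene, with the 3 hairpins side by side. The medians of the 69 members outside the imprinted clusters run from 7.96 to 9.61, and those of the 46 members of the clusters stay between 3.01 and 3.38.

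Members outside the imprinted clusters moved together from array to array, also between hairpins against the same gene. Their array medians were 8.44, 9.36 and 8.79 for the 3 DDX17 hairpins, 8.69, 8.82 and 9.61 for HNRNPL, and 8.65, 9.03 and 9.54 for DDX5. The CLP1 hairpins gave 8.37, 8.54 and 8.54, close to the 8.40 of lacZ. CLP1 thus had the narrowest spread of the 8 knockdowns, with a mean of 8.49 ± 0.10 (SD, n = 3), beside 9.07 ± 0.44 for DDX5, 8.86 ± 0.47 for DDX17 and 9.04 ± 0.50 for HNRNPL. In the second series the array medians were 8.88, 8.54 and 8.36 for PABPC1, 8.65, 8.37 and 7.96 for PARP1, 8.93, 8.89 and 8.62 for PRKDC, and 9.05, 9.03 and 8.41 for SUPT16H. The lacZ arrays gave 7.99 and 8.59. The higher lacZ array therefore lay within the range of each of the 4 knockdowns except PRKDC, whose lowest hairpin was at 8.62. The median of all 18417 genes ran between 6.41 and 6.54 over the first series and between 6.13 and 6.22 over the second. RMA sets the arrays of a series to 1 distribution, so a steady median over all genes was fixed in advance.

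A single hairpin often held the highest or the lowest level of nearly all members. The second DDX17 hairpin was the highest of the 3 for 66 of 69 members, against 31.8% of all genes. The third HNRNPL hairpin was the highest for 64 members, against 41.5% of all genes, and the third DDX5 hairpin for 61, against 46.7%. The third SUPT16H hairpin was the lowest of its group for 68 of 69 members, against 28.3% of all genes. The hairpins of a gene lay a median of 1.01 apart per member for DDX17, against 0.25 per gene over all genes, and 0.72 against 0.27 for SUPT16H. For CLP1 the 2 medians were 0.23 and 0.22.

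The lacZ arrays of the second series differed in the same way. The lacZ array outside the first series was higher than the shared lacZ array by a median of 0.45 over the 69 members, of which 62 were higher in it, while the median over all genes was -0.02. In that array SNORD38A, an rRNA guide, was 2.27 higher, SNORD35A was 1.33 higher, SNORD14C 1.31 and SNORD37 1.26. The SNORD38A difference exceeded that of any other of the 18417 genes. Over the 46 imprinted members the median was 0.08. The lower of the 2 lacZ arrays is the array that serves the first series as its only control.

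Against lacZ, no member was called in any knockdown of the first series by limma, although most members outside the imprinted clusters lay above the control after knockdown of DDX5, DDX17 and HNRNPL. Of all 115 members, 5 had an unadjusted p under 0.05 for CLP1, 29 for DDX5, 16 for DDX17 and 20 for HNRNPL. The share of all genes at that unadjusted threshold is not given, so these counts do not show an excess. At the adjusted threshold, the share of all genes called was 0.956% for CLP1, 0.842% for DDX5, 2.77% for DDX17 and 1.84% for HNRNPL. With 1 control array, the 95% confidence interval reached a median of 0.84 to either side over the 69 members outside the imprinted clusters. A call asked for more than this interval, as p-values were adjusted over all genes. Differences over 1 were seen in 17 of the 69 for DDX5, 7 for DDX17 and 12 for HNRNPL, and none was called. When the lacZ arrays of both series were fitted as 1 group, with no term for the series, 23, 40, 25 and 24 members were called, but 18.2%, 17.5%, 20.7% and 14% of all genes were called too, and the median of all genes moved to between 0.23 and 0.27.

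The median difference over the 69 members was 0.60 for DDX5, 0.41 for DDX17, 0.55 for HNRNPL and 0.07 for CLP1, and the medians over all genes lay between -0.01 and 0.02. For DDX5, 52 of the 69 lay above lacZ in all 3 hairpins, beside 19.2% of all genes. For HNRNPL 49 did, beside 26.8%, and for DDX17 34, beside 32.6%. For CLP1 28 lay above lacZ in all 3 hairpins, beside 34% of all genes, and 23 lay below it, beside 28.7%.

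None of the largest positive differences from lacZ in the first series passed the test. SNORD54, an RNA from an intron of RPS20, measured 8.31, 8.78 and 9.41 in the DDX5 arrays, against 7.20 in lacZ. All 3 hairpins stood above the control, by 1.64 ± 0.69 on average (limma adjusted p = 0.346). SNORD104, from the non-coding host SNHG25, measured 9.51, 9.68 and 10.53 in the HNRNPL arrays and 9.08, 10.34 and 9.47 in the DDX17 arrays, against 8.40 in lacZ. The groups did not overlap, and the differences were 1.51 ± 0.45 (limma adjusted p = 0.0879) and 1.23 ± 0.45 (adjusted p = 0.156). SNORD38A gave differences of 1.42 ± 0.57 for DDX5, 1.25 ± 0.57 for DDX17 and 1.52 ± 0.57 for HNRNPL. SNORD94, which guides methylation of the U6 spliceosomal RNA, differed by 1.27 ± 0.48 for DDX17 (limma adjusted p = 0.179), and SNORD102, from an intron of RPL21, by 1.42 ± 0.46 for DDX5 (adjusted p = 0.178).

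For CLP1, the largest positive differences from lacZ were 0.86 ± 0.46 for SNORD102, 0.78 ± 0.37 for SNORD52 and 0.62 ± 0.40 for SNORD35A. The largest negative ones were -1.22 ± 0.42 for SNORD114-3, -0.81 ± 0.35 for SNORD50B and -0.62 ± 0.44 for SNORD45C. None of the 6 passed the test, with limma adjusted p-values between 0.231 and 0.786. SNORD50B, an RNA of the non-coding host SNHG5, measured 6.31, 6.78 and 6.89 in the CLP1 arrays and 7.47 in lacZ. It also lay below lacZ in every hairpin against DDX5, DDX17 and HNRNPL, with differences of -0.59, -0.89 and -0.72. SNORD13P2, a copy of SNORD13 outside its gene, gave -0.96 ± 0.38 for DDX17 (limma adjusted p = 0.2) and -0.57 ± 0.38 for HNRNPL (adjusted p = 0.585).

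In the second series, 29 of 115 members were called against lacZ for PRKDC, 7 for SUPT16H, 3 for PABPC1 and 1 for PARP1. The share of all genes called was 35.7% for PRKDC, 9.53% for SUPT16H, 5.76% for PABPC1 and 5.44% for PARP1. The share of members called was therefore below that of all genes in each of the 4. Of the called members, 28 rose for PRKDC, where 19.6% of all genes rose, 6 for SUPT16H, where 3.77% did, and 3 for PABPC1, where 1.73% did. Of the 69 members outside the imprinted clusters, 32 lay above both lacZ arrays in all 3 PRKDC hairpins, beside 38.7% of all genes, 26 for PABPC1, beside 30.5%, 18 for SUPT16H, beside 32.5%, and 5 for PARP1, beside 27%. The calls depended on the lower lacZ array. With it left out, 1 member was called for PRKDC and 0 for SUPT16H, PABPC1 and PARP1, as calls among all genes fell to between 0.603% and 2.7%.

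SNORD37, an rRNA guide from an intron of EEF2 (translation elongation factor 2), gave the largest rise for PRKDC and for PABPC1. It measured 8.53, 8.31 and 8.11 in the PRKDC arrays, 8.03, 7.89 and 7.11 for SUPT16H, 8.11, 8.05 and 7.73 for PABPC1, and 7.86, 7.26 and 6.72 for PARP1, against 5.64 and 6.90 in lacZ. The arrays of PRKDC, SUPT16H and PABPC1 all lay above both lacZ arrays, and 1 PARP1 hairpin lay between them. The differences were 2.05 ± 0.40 for PRKDC (limma adjusted p = 0.00154), 1.41 ± 0.40 for SUPT16H (adjusted p = 0.0303), 1.70 ± 0.40 for PABPC1 (adjusted p = 0.014) and 1.01 ± 0.40 for PARP1 (adjusted p = 0.149). EEF2 itself differed from lacZ by -0.09, 0.25, -0.23 and -0.06 in these 4 knockdowns, and was not called.

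SNORD94, from an intron of PTCD3, measured 8.16, 8.15 and 8.76 for PRKDC and 8.81, 8.28 and 7.93 for SUPT16H, against 6.46 and 6.88 in lacZ. The groups stood apart, and SNORD94 rose by 1.69 ± 0.38 (limma adjusted p = 0.00365) and by 1.68 ± 0.38 (adjusted p = 0.00844). PTCD3, a mitochondrial ribosomal protein, differed by -0.41 and 0.05 and was not called. SNORD53, an rRNA guide from an intron of the ribosome biogenesis factor WDR43, measured 8.32, 8.24 and 8.61 for PRKDC and 9.08, 8.90 and 7.74 for SUPT16H, against 6.95 and 7.06 in lacZ. It rose by 1.38 ± 0.41 (limma adjusted p = 0.0163) and by 1.57 ± 0.41 (adjusted p = 0.0211), and the third SUPT16H hairpin was the closest to the controls.

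SNORD83A and SNORD83B lie in introns of RPL3, a protein of the large ribosomal subunit. SNORD83B measured 9.56, 9.50 and 9.41 for PRKDC and 9.37, 9.26 and 8.94 for SUPT16H, against 7.65 and 8.29 in lacZ. Both knockdowns lay above the controls, by 1.52 ± 0.38 (limma adjusted p = 0.00611) and 1.22 ± 0.38 (adjusted p = 0.0414). SNORD83A measured 7.59, 7.54 and 7.78 for PRKDC, against 5.67 and 6.27, and rose by 1.67 ± 0.46 (limma adjusted p = 0.0114). RPL3 differed by -0.43 for PRKDC and was not called.

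SNORD14C and SNORD14E, copies in introns of the chaperone gene HSPA8, belong to the SNORD14 RNAs of small-subunit rRNA processing and methylation. Their sequences are alike, and cross-hybridisation between them was not tested. SNORD14E measured 7.49, 7.24 and 7.96 for PRKDC, above the 5.68 and 6.37 of lacZ, and rose by 1.54 ± 0.40 (limma adjusted p = 0.00818). SNORD14C measured 10.60, 10.57 and 10.29, above 8.54 and 9.84, and rose by 1.30 ± 0.42 (adjusted p = 0.022). The host HSPA8 differed by -0.52 and was not called.

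The other members that rose for PRKDC outside the imprinted clusters were SNORD38A, SNORD12C, SNORD15A, SNORD1B, SNORD104, SNORD34, SNORD105, SNORD52 and SNORD55, by 0.82 to 1.44. SNORD38A overlapped lacZ: the PRKDC arrays at 9.72, 9.64 and 9.23 stood against 6.95 and 9.23. SNORD34, an rRNA guide from an intron of the ribosomal protein gene RPL13A, also rose for SUPT16H, where it measured 11.01, 10.94 and 10.67 against 9.40 and 10.42. The SUPT16H arrays all lay higher than lacZ, by 0.96 ± 0.26 (limma adjusted p = 0.0239). For PABPC1, SNORD105, from an intron of the nucleolar protein gene PPAN, measured 6.55, 6.01 and 6.13 against 5.18 and 5.49. It rose by 0.89 ± 0.24 (limma adjusted p = 0.0312).

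**Figure D2:**
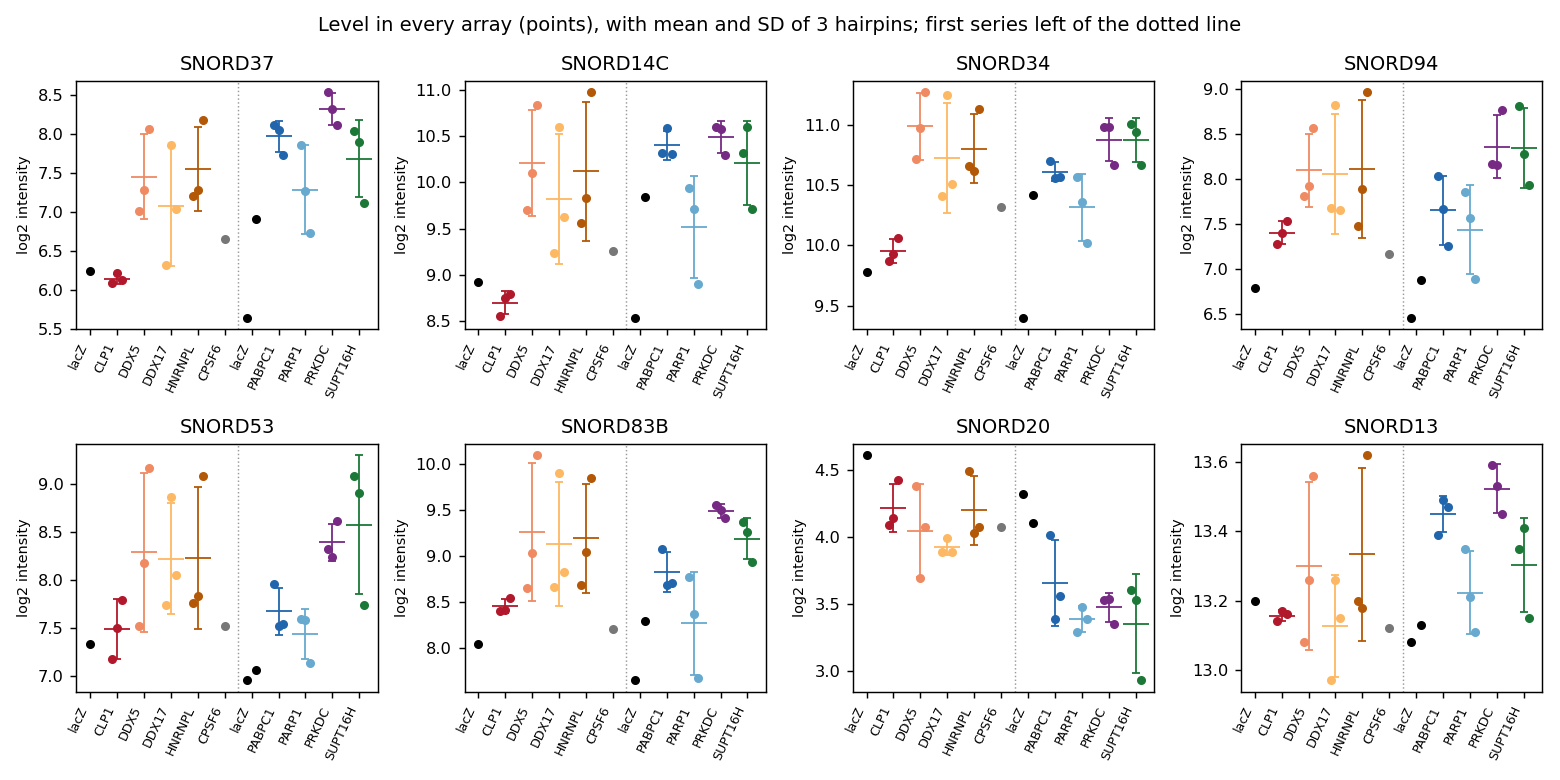
Level (log2 intensity, vertical axes of different range) of 8 members in every array, grouped by knocked-down gene, with the first series left of the dotted line. Points are arrays and lines are the mean and SD of 3 hairpins. SNORD37 in CLP1 arrays sits at 6.08 to 6.21, near the lacZ array at 6.24, and SNORD20 in PARP1 arrays sits at 3.29 to 3.48, below lacZ at 4.10 and 4.32.

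SNORD20 was the only member that fell in a call against lacZ. It is a guide for small-subunit rRNA from an intron of NCL (nucleolin), and its mean level of 3.85 was low. It measured 3.29, 3.48 and 3.39 for PARP1, 3.53, 3.54 and 3.35 for PRKDC, and 3.60, 3.53 and 2.93 for SUPT16H, against 4.32 and 4.10 in lacZ. All 9 arrays lay below both controls. Falls were called in 2.98% of all genes for PARP1, 16.1% for PRKDC and 5.76% for SUPT16H. SNORD20 fell by 0.83 ± 0.19 for PARP1 (limma adjusted p = 0.0104), by 0.74 ± 0.19 for PRKDC (adjusted p = 0.0076) and by 0.85 ± 0.19 for SUPT16H (adjusted p = 0.00745). For PABPC1 it measured 4.01, 3.39 and 3.56, a difference of -0.56 ± 0.19 (adjusted p = 0.0776).

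NCL differed from lacZ by -0.14 for PARP1, -0.22 for PRKDC and -0.08 for SUPT16H and was not called. SNORD82, from another intron of NCL, lay on the other side of 0 from SNORD20: it measured 10.27, 10.22 and 9.21 for PRKDC against 8.90 and 9.63, a difference of 0.64 ± 0.38 (limma adjusted p = 0.175). SNORD56B (-0.55 ± 0.26 for PRKDC), SNORD7 (-0.33 ± 0.19 for PABPC1) and SNORD13P2 (-0.48 ± 0.30 for PABPC1) were also below lacZ in all 3 hairpins and were not called. In the first series SNORD20 measured between 3.69 and 4.49 over the 12 arrays of the replicated knockdowns, against 4.61 in lacZ, and was not called.

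**Figure D3:**
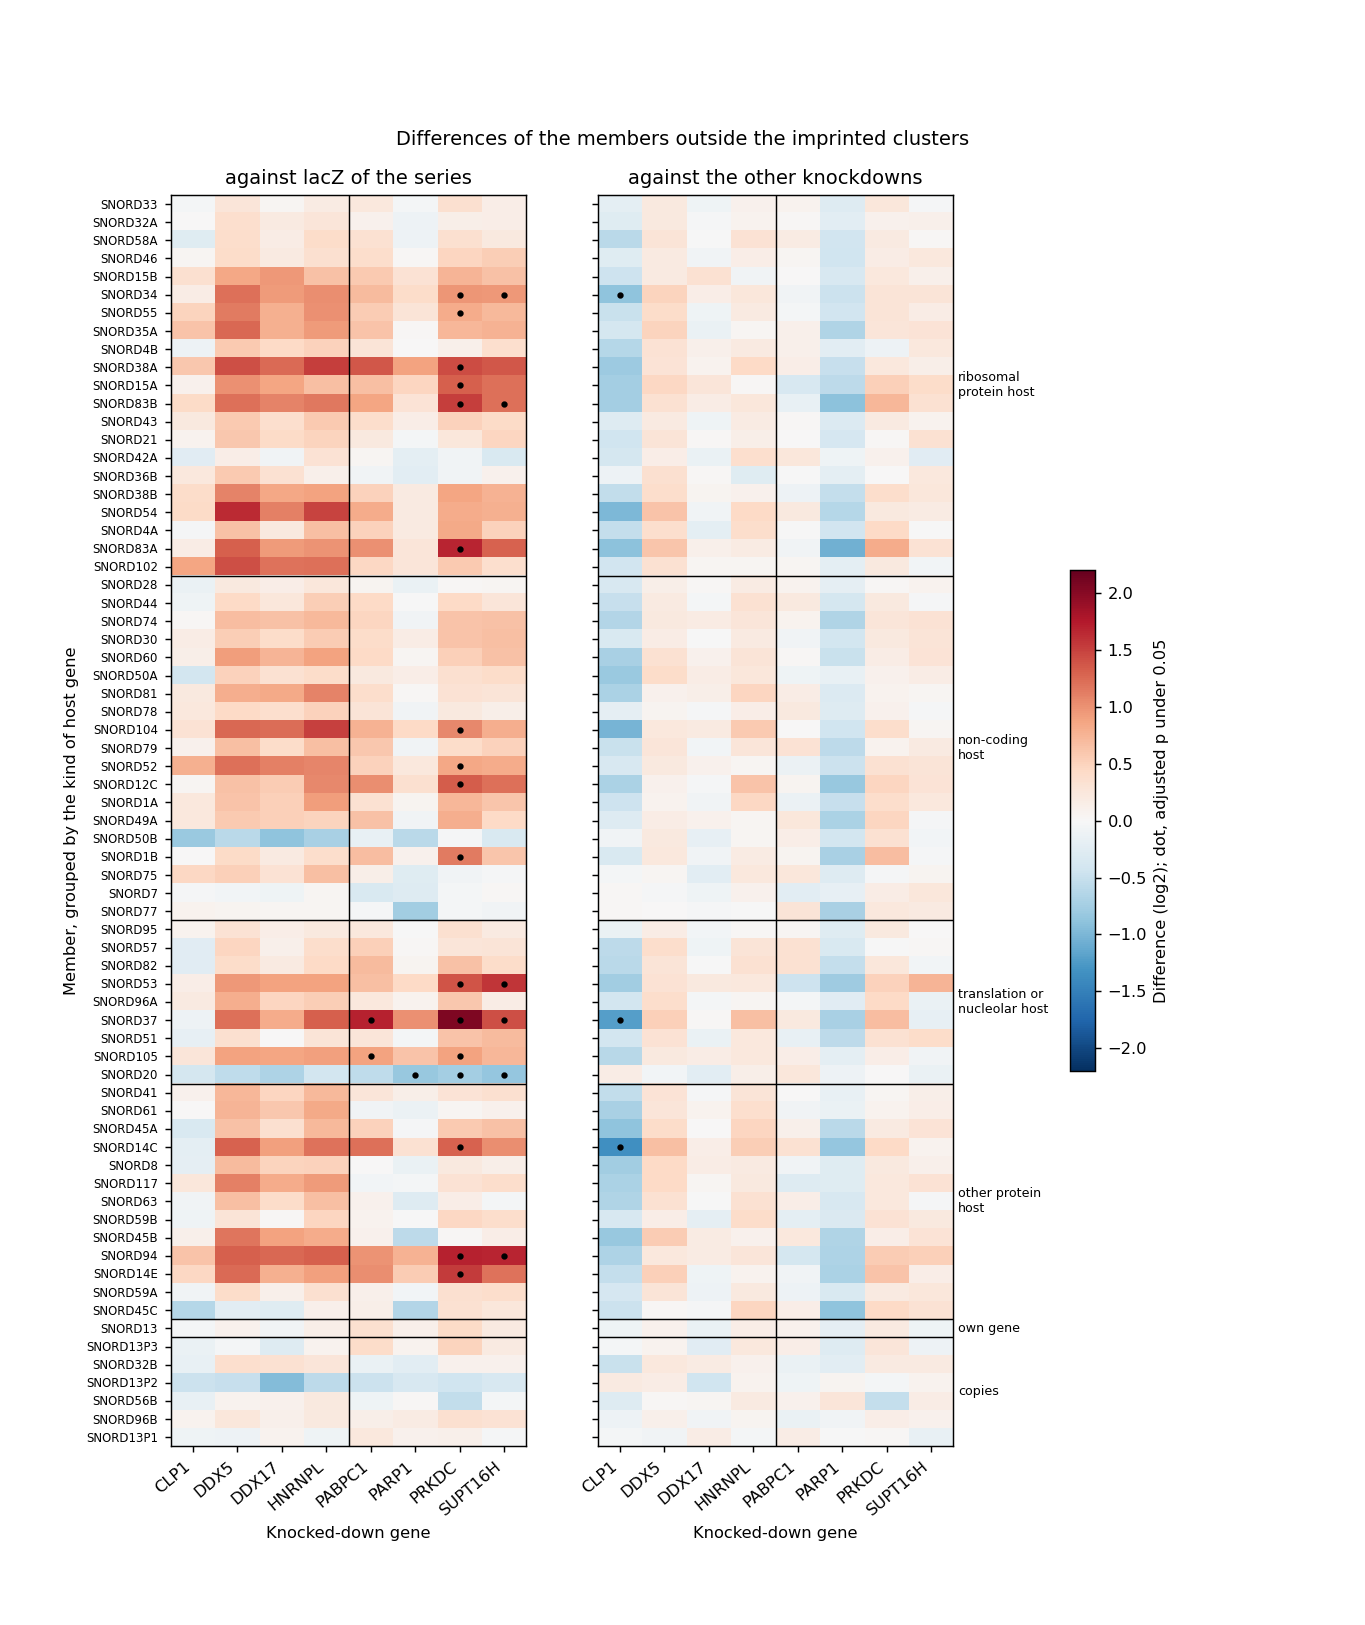
Difference (log2, colour) of each of the 69 members outside the imprinted clusters, in rows grouped by kind of host gene, for each knockdown against lacZ (left) and against the mean of the other 3 knockdowns of its series (right). Dots mark an adjusted p under 0.05. In the left panel the DDX5 column has a median of 0.60 and the CLP1 column 0.07, and in the right panel the CLP1 and PARP1 columns have medians of -0.49 and -0.39.

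The comparison of each knockdown with the mean of the other 3 of its series does not use the lacZ arrays. It asks whether the level of the members was particular to 1 target among cultures that all carried a hairpin against a human gene. The 4 comparisons of a series use the same 12 arrays. For the 69 members, the median difference of CLP1 from DDX5, DDX17 and HNRNPL was -0.49, and 65 of the 69 lay below 0. The median over all genes was 0.01. That of PARP1 from PABPC1, PRKDC and SUPT16H was -0.39, and 67 lay below 0. The other medians were 0.24 for DDX5, -0.01 for DDX17, 0.20 for HNRNPL, 0.05 for PABPC1, 0.22 for PRKDC and 0.14 for SUPT16H.

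In CLP1 knockdown, 4 of 115 members were called, of which 3 fell and 1 rose, beside 0.722% of all genes, of which 0.239% fell and 0.483% rose. In all 3 CLP1 hairpins, 16 of the 69 members lay below all 9 arrays of the other knockdowns, beside 1.2% of all genes, and 0 lay above them, beside 1.79%. Members in introns of ribosomal protein genes had a median of -0.49, with 0 of 21 above 0. Those in other protein-coding hosts had a median of -0.68, with 0 of 13 above 0. The medians were -0.57 in hosts of translation and nucleolar proteins and -0.35 in non-coding hosts, and the imprinted members had a median of 0.00.

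SNORD14C measured 8.56, 8.75 and 8.79 in the CLP1 arrays, while the 9 other arrays ran from 9.24 over a median of 9.83 to 10.97. The groups did not overlap, and the difference was -1.35 ± 0.30 (limma adjusted p = 0.0385). SNORD37 measured 6.08, 6.21 and 6.12 against 6.32, 7.28 and 8.17 as the lowest, median and highest of the others, a difference of -1.22 ± 0.29 (adjusted p = 0.0488). SNORD34 measured 9.87, 9.93 and 10.06 against 10.41, 10.72 and 11.27, a difference of -0.88 ± 0.19 (adjusted p = 0.0288). For all 3 the CLP1 hairpins lay closer to each other than the hairpins of the other knockdowns did.

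The same 3 members stood near lacZ in CLP1 knockdown. The lacZ array measured 8.92 for SNORD14C, 6.24 for SNORD37 and 9.78 for SNORD34, and CLP1 differed from it by -0.22 ± 0.53, -0.11 ± 0.51 and 0.17 ± 0.33 (limma adjusted p = 0.971, 0.989 and 0.963). With 1 control array the 95% confidence intervals of these differences ran from -1.31 to 0.87, from -1.15 to 0.94 and from -0.51 to 0.85. The hosts HSPA8 and EEF2 differed between CLP1 and the other knockdowns by 0.21 and 0.03 and were not called. RPL13A, the host of SNORD34, was not measured by a single-symbol probeset.

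A further 13 members outside the imprinted clusters lay below all 9 other arrays in CLP1 knockdown and were not called. The largest differences among them were -1.02 ± 0.26 for SNORD104 (limma adjusted p = 0.0641) and -0.91 ± 0.34 for SNORD83A (adjusted p = 0.181), and the smallest was -0.49 for SNORD32B. SNORD104 measured 8.45, 8.73 and 8.95 in the CLP1 arrays, where the others ran from 9.08 over a median of 9.51 to 10.53. The call was lost for each of the 4 called members when any 1 of the CLP1 hairpins was left out or when the first series was fitted alone.

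No member was called in PARP1 knockdown against PABPC1, PRKDC and SUPT16H by limma, beside 0.554% of all genes. An unadjusted p under 0.05 was reached by 23 of 115, a threshold for which no share of all genes is given here or below. Of the members, SNORD35A, SNORD45C and SNORD83A lay below all 9 other arrays, beside 2.86% of all genes that did. Their differences were -0.67 ± 0.23, -0.88 ± 0.25 and -1.06 ± 0.34 (limma adjusted p = 0.155, 0.105 and 0.135). No member was called for PRKDC or PABPC1 (each beside 0.0869% of all genes), SUPT16H (beside 0.0109%), DDX5 (beside 0.038%), DDX17 (beside 0.874%) or HNRNPL (beside 0.0977%), and in limma 12, 4, 4, 8, 0 and 5 of 115 had an unadjusted p under 0.05. Of the 69 members outside the imprinted clusters, SNORD37 and SNORD83B lay above all 9 other arrays in PRKDC knockdown, by 0.68 ± 0.29 and 0.73 ± 0.27 (limma adjusted p = 0.171 and 0.142), beside 5.36% of all genes, and so did the imprinted members SNORD113-4 and SNORD116-18, by 0.17 and 0.10. In the 12 direct comparisons of a pair of knockdowns, SNORD116-10 was called for CLP1 against DDX17 (beside 1.78% of all genes) and against HNRNPL (beside 0.652%), and SNORD83B for PARP1 against PRKDC (beside 2.88%).

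**Figure D4:**
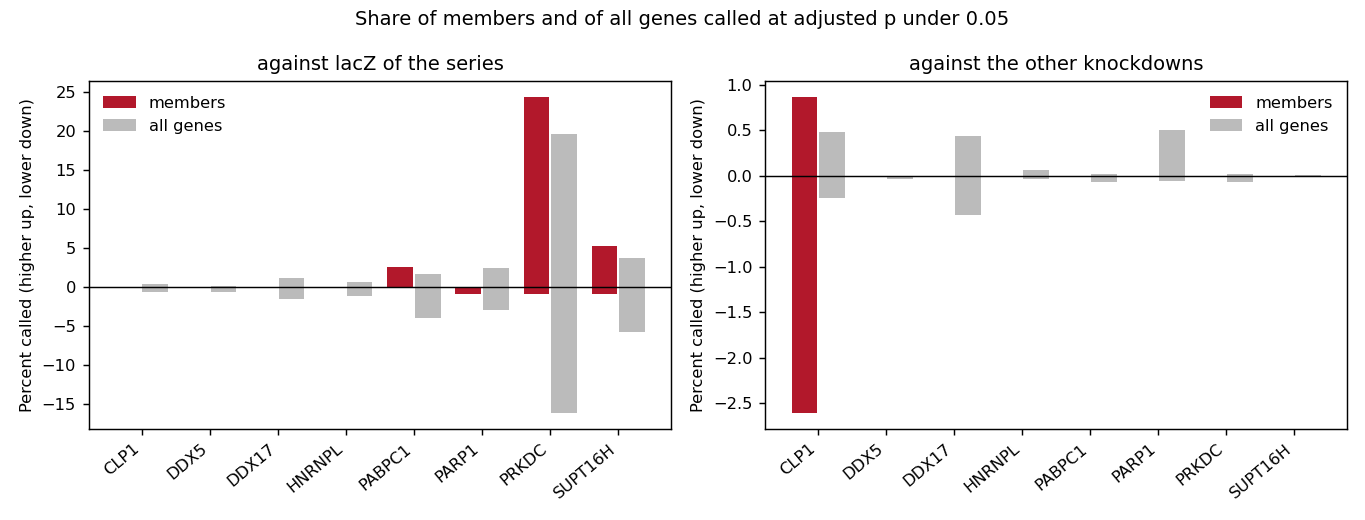
Percent of the 115 members (red) and of all 18417 genes (grey) called at an adjusted p under 0.05, rises drawn upward and falls downward, for each knockdown against lacZ (left) and against the other knockdowns of its series (right, on a finer axis). Calls of members against lacZ appear only in the second series, and against the other knockdowns only for CLP1, with 3 falls and 1 rise.

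In most comparisons with lacZ the members stood above the genes that host them. The 2 lacZ arrays of the second series showed the same gap. The higher one exceeded the shared one by a median of 0.45 over the 69 members and 0.00 over 21 host genes, 11 of which were higher. How much of the gap in the knockdowns comes from the low shared lacZ array was not tested. Hosts were found by overlap of annotated positions for 62 of the 63 members outside the imprinted clusters that are not copies. They make 37 distinct genes, of which 21 were measured by single-symbol probesets and gave 31 member and host pairs. SNORD21 overlapped both DIPK1A and RPL5 and gave a pair with each, and which of them hosts it was not assessed. Over the 21 hosts the median difference from lacZ was -0.18 for DDX5, 0.03 for DDX17, -0.03 for HNRNPL, -0.41 for PRKDC and -0.08 for SUPT16H. The member stood above its host in 28 of 31 pairs for DDX5, 23 for DDX17, 28 for HNRNPL, 29 for PRKDC and 28 for SUPT16H. For PABPC1 and PARP1 it did so in 29 and 23 pairs, with host medians of -0.23 and -0.14. For CLP1 it did so in 12 pairs, with a host median of 0.11.

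Against the other knockdowns the member stood above its host in 1 of 31 pairs for CLP1 and in 0 for PARP1, where the host medians were 0.16 and 0.06. For DDX5 it did so in all 31 pairs, for PRKDC in 30 and for HNRNPL in 29. The counts were 21 for PABPC1, 13 for DDX17 and 12 for SUPT16H. In the first series 1 host was called, ZFAS1, a non-coding host of SNORD12 RNAs, which rose by 0.78 ± 0.21 for DDX17 (limma adjusted p = 0.0479). Of the hosts in the second series, 6 fell for PRKDC (CHD8, DIPK1A, HSPA9, RPL17, RPL5 and ZFAS1, by 0.49 to 0.90), 3 for PABPC1 (RPL17, SNHG29 and ZFAS1, by 0.63 to 0.99) and 1 for PARP1 (RPL17, by 0.74), where 16.1%, 4.02% and 2.98% of all genes fell. ZFAS1 fell by 0.49 for PRKDC, while SNORD12C in one of its introns rose by 1.33.

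The members in introns of 1 host share its transcript. All 7 members in the non-coding host GAS5 lay above lacZ for DDX5, DDX17 and HNRNPL, and 6 did for CLP1. They had medians against lacZ of 0.53 for DDX5, 0.37 for DDX17, 0.66 for HNRNPL and 0.09 for CLP1. In the second series these medians were 0.38 for PABPC1, -0.08 for PARP1, 0.32 for PRKDC and 0.26 for SUPT16H. The lowest of the 7 for PARP1 was SNORD77, at 4.42, 3.99 and 4.05 against 4.94 and 4.89 in lacZ, a difference of -0.76 ± 0.27 (limma adjusted p = 0.107). The 2 members in introns of SNHG1 had medians of 0.38 for DDX5, 0.28 for DDX17, 0.40 for HNRNPL and 0.00 for CLP1.

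The H/ACA RNAs, which guide pseudouridylation of rRNA and bind another protein core, were pooled with the Cajal body RNAs, which modify spliceosomal RNA. Which core each Cajal body RNA binds was not assessed, so the pooled list may hold RNAs that share the core of the members. Together, the H/ACA and Cajal body RNAs moved beside the members. Over 77 such RNAs the array medians were 8.42, 8.70 and 9.53 for DDX5, 8.26, 9.48 and 8.43 for DDX17, 8.07, 8.62 and 9.59 for HNRNPL, and 7.96, 8.20 and 8.36 for CLP1, against 7.72 in lacZ. The hairpins with the highest members, the third of DDX5, the second of DDX17 and the third of HNRNPL, were also highest here. Their median difference from lacZ was 0.88 for DDX5, 0.74 for DDX17, 0.79 for HNRNPL, 0.72 for PRKDC, 0.70 for SUPT16H and 0.28 for CLP1. Against the other knockdowns it was -0.53 for CLP1 and -0.39 for PARP1, near the -0.49 and -0.39 of the members. When the H/ACA level of each array was entered in the fit as a term, a setting chosen after seeing the data, the median of the members for CLP1 against the other knockdowns became -0.06 and no call remained. By construction this term removes what the members share with the H/ACA RNAs. The part of the H/ACA level in the differences of the members was not tested. Other short RNA genes (184) had smaller median differences from lacZ, between 0.04 for CLP1 and 0.27 for PRKDC.

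**Figure D5:**
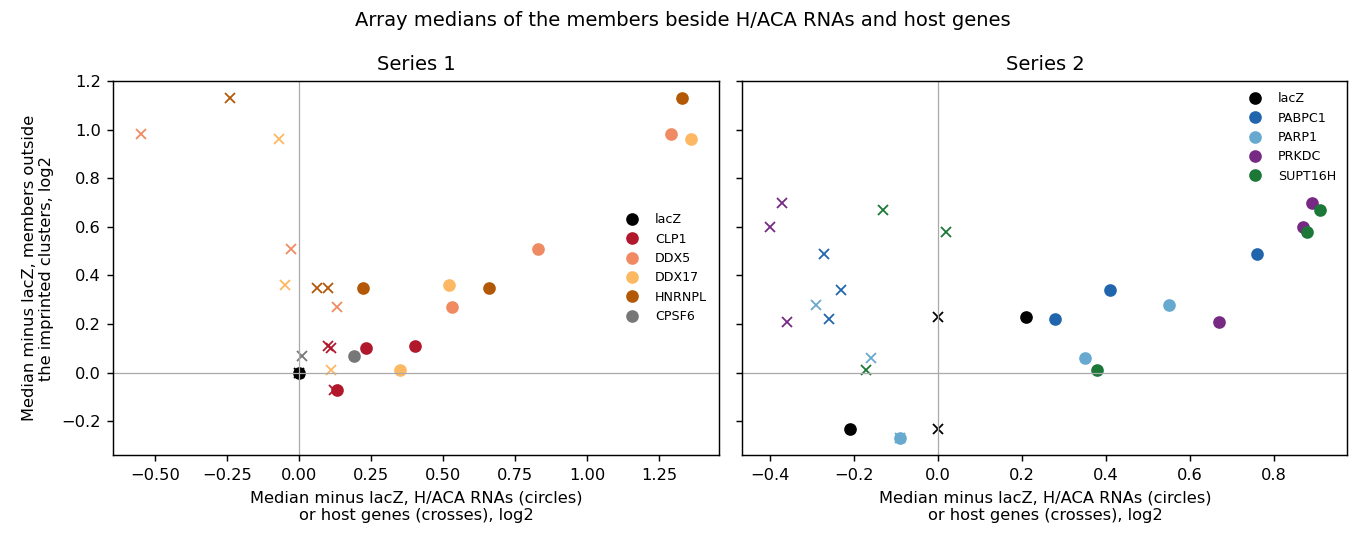
Median level of the 69 members outside the imprinted clusters minus lacZ (vertical, log2), for each array, against the median of the H/ACA and Cajal body RNAs minus lacZ (circles) or of the host genes minus lacZ (crosses). Circles run from lower left to upper right in both series, while the crosses lie to the left of 0 in most arrays of the second series.

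Of 5 proteins of box C/D particles, FBL and NOP58 of the core and the U3 protein RRP9 were measured. FBL was not called in any comparison. NOP58, the scaffold that holds the guide RNA, fell by 1.25 ± 0.35 for PRKDC (limma adjusted p = 0.0113) and by 1.10 ± 0.35 for SUPT16H (adjusted p = 0.0469). RRP9, which binds U3, rose by 0.70 ± 0.20 for PABPC1 (limma adjusted p = 0.0428) and by 0.54 ± 0.20 for PRKDC (adjusted p = 0.043). Of 20 genes of snoRNA assembly, trimming and transport, 9 fell and 1 rose for PRKDC against lacZ, where 16.1% of all genes fell and 19.6% rose. Those that fell included the nucleolar chaperone NOLC1, the assembly factor RPAP3, and EXOSC10 and DIS3, nucleases of the RNA exosome, which fell by 0.80 to 1.26. For SUPT16H, NOLC1 and RPAP3 fell and ZNHIT3 rose, and for PARP1 NOLC1 fell. In the first series and for PABPC1, limma called none of the 20 against lacZ, and between 0 and 3 of them had an unadjusted p under 0.05.

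The members of the imprinted clusters stayed near the floor of the scale, and their median difference from lacZ lay between 0.04 and 0.14 over the 8 knockdowns. For PRKDC 12 of the 46 rose, by 0.15 to 0.75, beside 19.6% of all genes. SNORD114-26 measured 4.41, 4.18 and 4.51 for PRKDC and 4.12, 4.02 and 4.12 for PABPC1, against 3.58 and 3.64 in lacZ. It rose by 0.75 ± 0.14 (limma adjusted p = 0.000951) and by 0.47 ± 0.14 (adjusted p = 0.0432). SNORD113-3 measured 3.59, 3.38 and 3.41 for SUPT16H against 3.05 and 3.17, a rise of 0.35 ± 0.09 (limma adjusted p = 0.0141). SNORD116-10 was the member that rose for CLP1 against the other knockdowns: it measured 3.33, 3.26 and 3.34, while the 9 others had a median of 3.07 and a highest level of 3.12. The difference was 0.24 ± 0.05 (limma adjusted p = 0.0146), and lacZ measured 3.30. SNORD114-3, the brightest of the imprinted members, was at 4.14, 4.09 and 4.16 for CLP1, below the 5.35 of the only lacZ array. Every hairpin against DDX5, DDX17 and HNRNPL was below that array too, with differences of -0.61, -0.83 and -0.58. In the second series SNORD114-3 measured 4.58, 4.36 and 4.35 for SUPT16H against lacZ arrays between 5.09 and 5.77. This left all 3 hairpins below both controls (limma adjusted p = 0.0536). The PARP1 hairpins, at 4.38, 4.92 and 4.38, were below both as well, while PABPC1 differed by 0.22.

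SNORD13, near the top of the scale, measured 13.20 in lacZ and between 12.97 and 13.62 over the other arrays of the first series. For PRKDC it measured 13.59, 13.53 and 13.45, above the 13.08 and 13.13 of lacZ, a difference of 0.42 (limma adjusted p = 0.057). It was not called in any comparison with lacZ. SNORD44, SNORD49A, SNORD61, SNORD95 and SNORD96A are used as reference RNAs in PCR of microRNAs. Limma called none of the 5 against lacZ, and 1 of them for PRKDC and none elsewhere had an unadjusted p under 0.05. Their median difference was 0.58 for DDX5, 0.48 for DDX17, 0.54 for HNRNPL, 0.44 for PRKDC and 0.08 for CLP1.

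CPSF6 knockdown had 1 array and no test. The 69 members differed from the lacZ array by a median of 0.07, none of them by more than 1, and the all-gene median was -0.02. Of the 69, 11 were lower in the CPSF6 array than in any other array of the first series, which held for 6.08% of all genes, and 0 were higher, which held for 7.9%. SNORD75, an RNA of GAS5, measured 5.77 with CPSF6 knockdown and 6.13 in lacZ, and no other knockdown array of the series measured less than 6.17.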

How the data were processed

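The authors deposited linear RMA intensities per probeset (aroma.affymetrix, the custom CDF of their methods), made from total RNA amplified with random primers, for 2 series of 14 arrays that were normalised apart. RMA sets the arrays of a series to 1 distribution, so levels are relative within a series. Values were taken as log2. Of 33252 probesets, 19460 carried 1 symbol, 1754 several and 12038 none, and the brightest single-symbol probeset stood for each of 18417 genes. No filter on low values was applied, so that all 115 members were tested. All 28 arrays were fitted together in limma 3.58.1 (R 4.3.3) with 1 coefficient per group and series, the prior variance following intensity, and 17 residual degrees of freedom beside 8 of the prior, and p-values were adjusted by Benjamini-Hochberg over all 18417 genes. Each knockdown was compared with lacZ of its series, with the mean of the other 3 replicated knockdowns, and in 12 pairs. Confidence intervals come from the same fit. The number of arrays limits the precision. Tables were handled with Python 3.11.15, numpy 2.4.6 and pandas 2.3.3, and figures drawn with matplotlib 3.10.9. The fit was tested on simulated data with independent noise for each gene and array, so genes that move together, as the members did, were not simulated.

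Members and gene lists were chosen with earlier results of these data known. Hosts were assigned by overlap in the RefSeq annotation of GRCh38.p14. The members named are those called (at most 6 per comparison in each direction), the 3 largest differences in each direction per knockdown against lacZ that had the same sign in all 3 hairpins, the highest and lowest in mean level, SNORD13, the SNORD14 members and the reference RNAs; SNORD12C, SNORD82, SNORD75, SNORD32B and others outside this rule were named after their values were seen. Alternatives were each series alone, no series term, quantile normalisation, median centring, a pseudocount of 16, the mean over probesets, no trend, a filter on low values, the hairpin number as a block, each array left out, and the H/ACA level as a term.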

Additional observations from a re-analysis of the deposited data

Results flagged for a closer look

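In the 12 direct comparisons of 2 knockdowns of a series, 3 differences passed the test in limma, each for 1 of 115 members. They were marked because the effects of 2 knockdowns under the same contrast differed. With 1 call each, these counts do not show an excess of members over the shares of all genes given below. SNORD116-10, an RNA of the Prader-Willi cluster near the floor of the scale, was higher in CLP1 than in DDX17 knockdown by 0.22 ± 0.06 (adjusted p = 0.0448, beside 1.78% of all genes called) and higher in CLP1 than in HNRNPL knockdown by 0.28 ± 0.06 (adjusted p = 0.0187, beside 0.652% of all genes called). In the CLP1 arrays it measured 3.33, 3.26 and 3.34. SNORD83B, from an intron of RPL3, was lower in PARP1 than in PRKDC knockdown, with a difference of -1.22 ± 0.34 (adjusted p = 0.0491, beside 2.88% of all genes called). It measured 8.77, 8.37 and 7.67 in the PARP1 arrays and 9.56, 9.50 and 9.41 in the PRKDC arrays, which did not overlap.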

How the results depend on the processing

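The number of members called depended most on the control arrays and on the fit. With each series fitted alone, called members went from 3 to 13 for PABPC1, from 1 to 3 for PARP1 and from 7 to 20 for SUPT16H against lacZ, and from 4 to 0 for CLP1, from 0 to 9 for PARP1 and from 0 to 5 for PRKDC against the other knockdowns. With no series term they were 23, 40, 25, 24 and 18 for CLP1, DDX5, DDX17, HNRNPL and PRKDC against lacZ. Quantile normalisation and a fit without trend each left 2 for CLP1 against the others, and median centring called 1 for DDX17 against lacZ. A filter on low values left 0 for CLP1 against the others and 1, 0 and 16 for PABPC1, PARP1 and PRKDC against lacZ. The pseudocount and the mean over probesets moved no count by over 1.5 times.

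The H/ACA term, added after seeing the data, left 0 calls for CLP1 against the others and gave 1, 3, 6 and 2 for DDX17, PARP1, PRKDC and SUPT16H against lacZ. It turned the median of the 69 members against lacZ to -0.20 for CLP1, -0.15 for DDX5, -0.18 for DDX17, -0.12 for HNRNPL, 0.04 for PABPC1, -0.13 for PRKDC and -0.17 for SUPT16H, and against the others to -0.06 for CLP1 and -0.09 for PARP1. By construction it removes what the members share with the H/ACA RNAs; the cause was not tested.

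With 1 array left out at a time, calls against lacZ ran from 0 to 2 for DDX5, 0 to 2 for DDX17, 0 to 5 for PABPC1, 0 to 3 for PARP1, 1 to 29 for PRKDC and 0 to 10 for SUPT16H, calls against the others were 0 for CLP1 and ran from 0 to 3 for DDX5, and the PABPC1 median against lacZ ran from 0.12 to 0.61. Without the lower lacZ array of the second series, calls were 0 for PABPC1, PARP1 and SUPT16H and 1 for PRKDC, and SNORD38A for PARP1 turned from 0.89 to -0.25 (adjusted p = 0.906). Without the other lacZ array, PABPC1 had 5 and PARP1 3, and SNORD38A for PARP1 differed by 2.03. Without the first PRKDC hairpin 18 were called, without the first or second SUPT16H hairpin 3, without the third PABPC1 hairpin 1, without the first DDX17 hairpin 2, and without the first DDX5 hairpin 2 against lacZ and 3 against the others.

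Hairpin numbers name different sequences for each gene, and the labels give no other link between same-numbered arrays. In the second series, however, the array median of the members outside the imprinted clusters fell from the first to the third hairpin in every knockdown. Whether same-numbered arrays share more than a number was not tested. Over 36 pairs of same-numbered arrays the correlation of deviations over all genes ran from -0.58 to 0.83 (15 over 0.1). Of 24 arrays, 9 correlated best with their own number. As a replicate block the number left 3 calls for CLP1 against the others, 9 for SUPT16H and 29 for PRKDC against lacZ. Of 821 values of named members under the alternatives, 716 kept their direction and side of the threshold, 84 lost the call, 20 gained it and 1 changed sign. Over the alternatives the adjusted p ran from 0.0313 to 0.234 for SNORD14C, 0.0454 to 0.339 for SNORD37, 0.0208 to 0.212 for SNORD34 and 0.0143 to 0.212 for SNORD116-10 in CLP1 knockdown against the others.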
